A study of Mus musculus with 8 samples.

Results

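The transcripts described here are the most abundant long non-coding RNAs of whole mouse embryos of 4 genotypes, 25 of the 29158 transcripts in the deposited long non-coding RNA table. They were chosen by their values. A transcript was taken when it reached 20 FPKM (fragments scaled to transcript length and library size) or more in at least 1 of the 4 genotype columns. It was left out when MKI against WT and HOMO against PKI, the 2 pairs that differ in the maternal copy, both lay at least 2-fold down or both at least 2-fold up on the log2(FPKM + 0.5) scale. In all, 40 transcripts reached 20 FPKM and 15 of them were left out by this second condition. Levels, and differences in those 2 pairs, are therefore descriptions of what was selected, and no test was made of any of them.

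In the mouse model studied, 3 polyadenylation cassettes, which stop transcription before the end of a gene, had been put into the promoter of Gtl2, the maternally expressed non-coding RNA gene of the imprinted Dlk1-Dio3 domain (Easi-CRISPR method). HOMO embryos carried the insertion on both copies, MKI embryos on the copy from the mother and PKI embryos on the copy from the father, and WT embryos carried none. The design text gives embryonic day 12.5 for all, while the sample titles give that day for WT and a slightly later one for each genotype with an insertion. The labels state neither strain nor sex, nor how many founder lines or embryos stand behind a sample. The labels hold 8 samples, 2 per genotype, but each table has 1 column per genotype. There was thus no replicate check on any difference below, no spread within a genotype, and no p-value, and the sequencing depth behind the FPKM values is unknown.

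Long non-coding RNAs are transcripts without a long reading frame. Some stay in the nucleus and shape chromatin or nuclear bodies, and some are hosts from which small RNAs are cut. FPKM divides by transcript length, so a short RNA receives a higher value than a long RNA with the same number of fragments. The libraries were made from RNA selected with oligo(dT), which favours RNAs with a poly(A) tail, per the labels' protocols. Transcripts with the prefix ENSMUST have Ensembl identifiers. Those with the prefix MSTRG were assembled from the reads, with a locus number followed by a transcript number. None of the 25 identifiers was found in the reference tables used here, so the transcripts are given by identifier, without gene name, position, length or sequence.

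The embryo columns held RNA of the main tissues. All 10 red cell genes, 9 fetal liver genes, 6 neural genes and 6 muscle and mesenchyme genes listed were above 0 in every column of the mRNA table. The summed red cell genes stood at 15830 FPKM in HOMO, 5549 in MKI, 8305 in PKI and 9206 in WT. The summed liver genes stood at 854 FPKM in HOMO, 1210 in MKI, 247 in PKI and 690 in WT, and 9 mitochondrial protein genes at 5685 FPKM in HOMO, 11347 in MKI, 7209 in PKI and 5483 in WT. Neural genes summed to between 250 and 379 FPKM, and muscle and mesenchyme genes to between 215 and 341 FPKM. All 4 Y-linked genes were listed at 0 in WT and summed to between 42.3 and 73.3 FPKM in the other columns. Each comparison with WT thus differed in Y-linked genes as well as in the insertion, whose parts cannot be told apart. Because the columns come from bulk libraries, fewer cells of a type and less RNA per cell cannot be told apart in any of the values.

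A handful of transcripts made up most of 3 of the 4 columns. The long non-coding table summed to 38677 FPKM in HOMO, 15573 in MKI, 66401 in PKI and 45971 in WT. In HOMO 3 transcripts reached 50% of that sum, and in PKI and in WT 2 did, whereas in MKI 1128 transcripts were needed. The first 10 transcripts held 76.2% of the sum in HOMO, 20.4% in MKI, 82.5% in PKI and 75.1% in WT. A share of the column sum is a share of length-scaled values, not of reads, since the table gives no lengths.

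**Figure D1:**
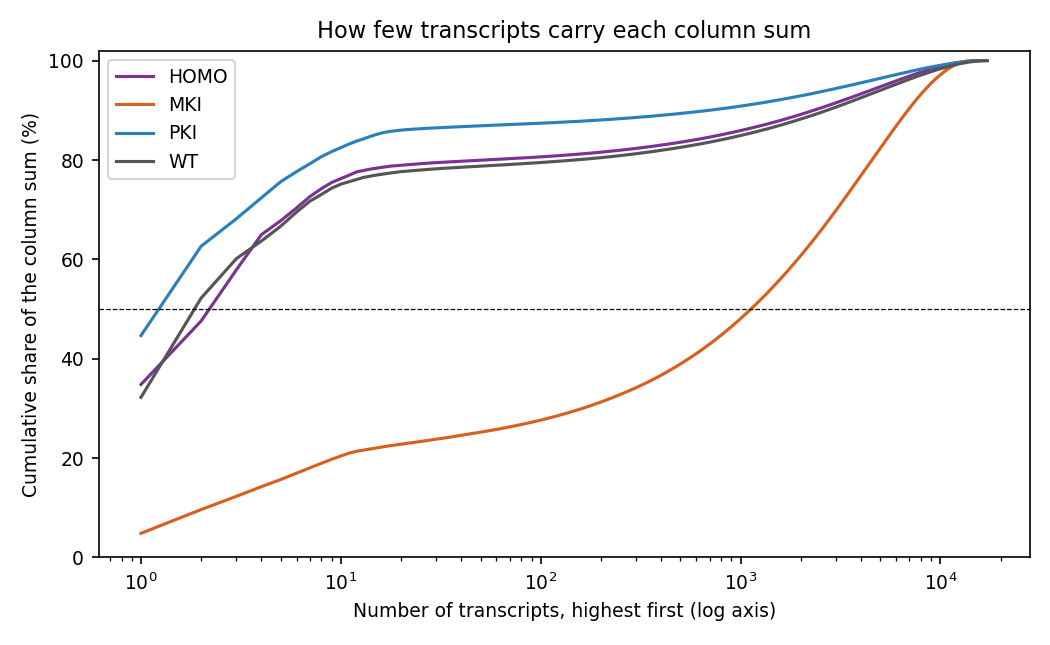
Cumulative share of the column sum (%, vertical axis) against the number of transcripts counted from the highest down (log axis) for the HOMO, MKI, PKI and WT columns of the long non-coding RNA table; the dashed line marks 50%. The HOMO, PKI and WT curves cross it within the first 3 transcripts, the MKI curve at 1128.

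The 25 transcripts summed to 10549 FPKM in HOMO, 2570 in MKI, 7919 in PKI and 8081 in WT. This was 27.3% of the column sum in HOMO, 16.5% in MKI, 11.9% in PKI and 17.6% in WT. The 15 transcripts left out by the rule held 52.1% in HOMO, 6.50% in MKI, 74.6% in PKI and 60.7% in WT. The 29118 transcripts below 20 FPKM in every column summed to 7993 FPKM in HOMO, 11991 in MKI, 8945 in PKI and 10001 in WT. MKI thus had the lowest sum over the 25 and over the 15, and the highest sum over the rest. The whole-table sum of MKI was 0.339 of that of WT, the MKI sum of the 25 was 0.318 of that of WT, and the MKI sum of the transcripts below 20 FPKM was 1.20 times that of WT.

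**Figure D2:**
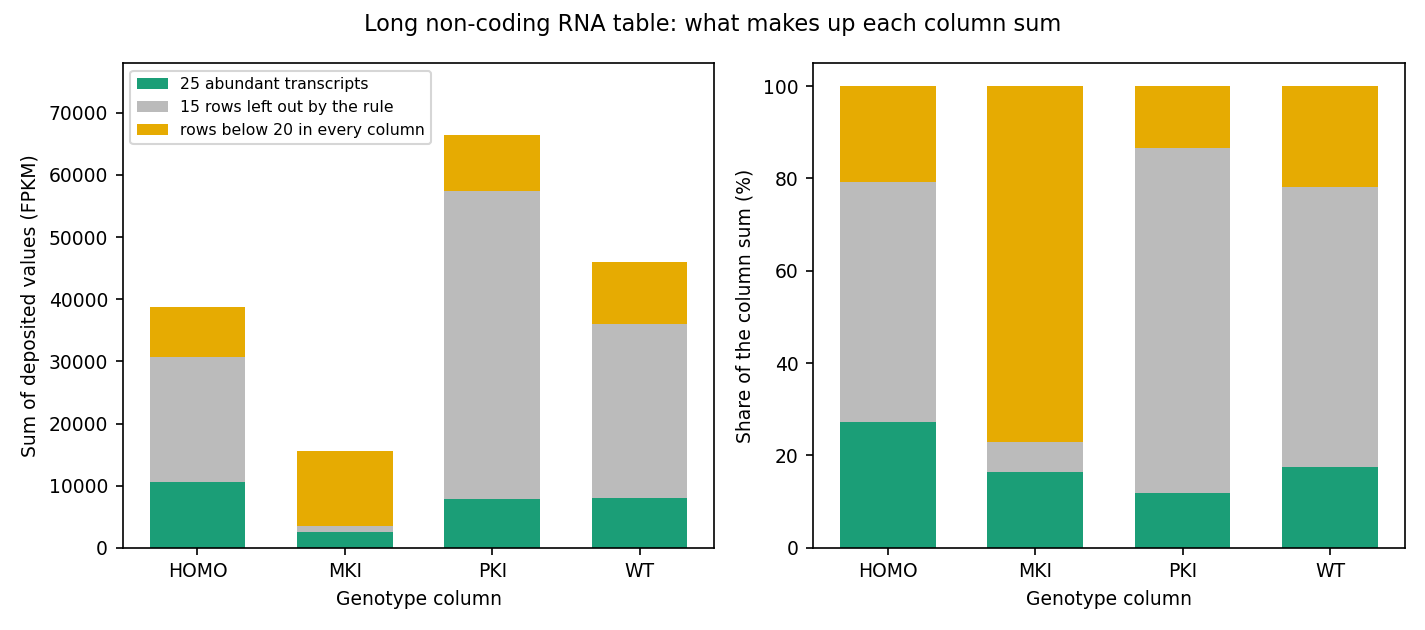
Sums of deposited values (FPKM, left) and shares of the column sum (%, right) for the 25 abundant transcripts, the 15 rows left out by the rule and the rows below 20 FPKM in every column, stacked by genotype column (HOMO, MKI, PKI, WT). Rows below 20 FPKM make up 77.0% of the MKI sum and between 13.5% and 21.8% of the other 3.

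The first place in HOMO, PKI and WT belonged to MSTRG.23398.6, a transcript left out by the rule, with 34.8% of the HOMO sum, 44.7% of the PKI sum and 32.2% of the WT sum. Second in all 3 was ENSMUST00000192833, also left out, at 4947 FPKM in HOMO, 11940 in PKI and 9187 in WT. Of the 10 highest transcripts, 6 in HOMO, 7 in MKI, 3 in PKI and 5 in WT were among the 25 described here. Without the single row MSTRG.23398.6, the share of the 25 was 41.8% in HOMO, 16.5% in MKI, 21.6% in PKI and 25.9% in WT, so that row alone moved their share by more than 1.5 times in HOMO and PKI.

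Within the 25, each column was led by few members, and not by the same ones. ENSMUST00000175096 led in HOMO, with 37.7% of the sum of the 25, and in PKI, with 46.4%. ENSMUST00000172812 led in MKI with 29.4%, closely followed by MSTRG.23398.2 with 29.0%. MSTRG.46917.16 led in WT with 45.1%. The 5 highest members held 89.3% of the sum of the 25 in HOMO, 81.6% in MKI, 86.3% in PKI and 92.6% in WT.

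**Figure D3:**
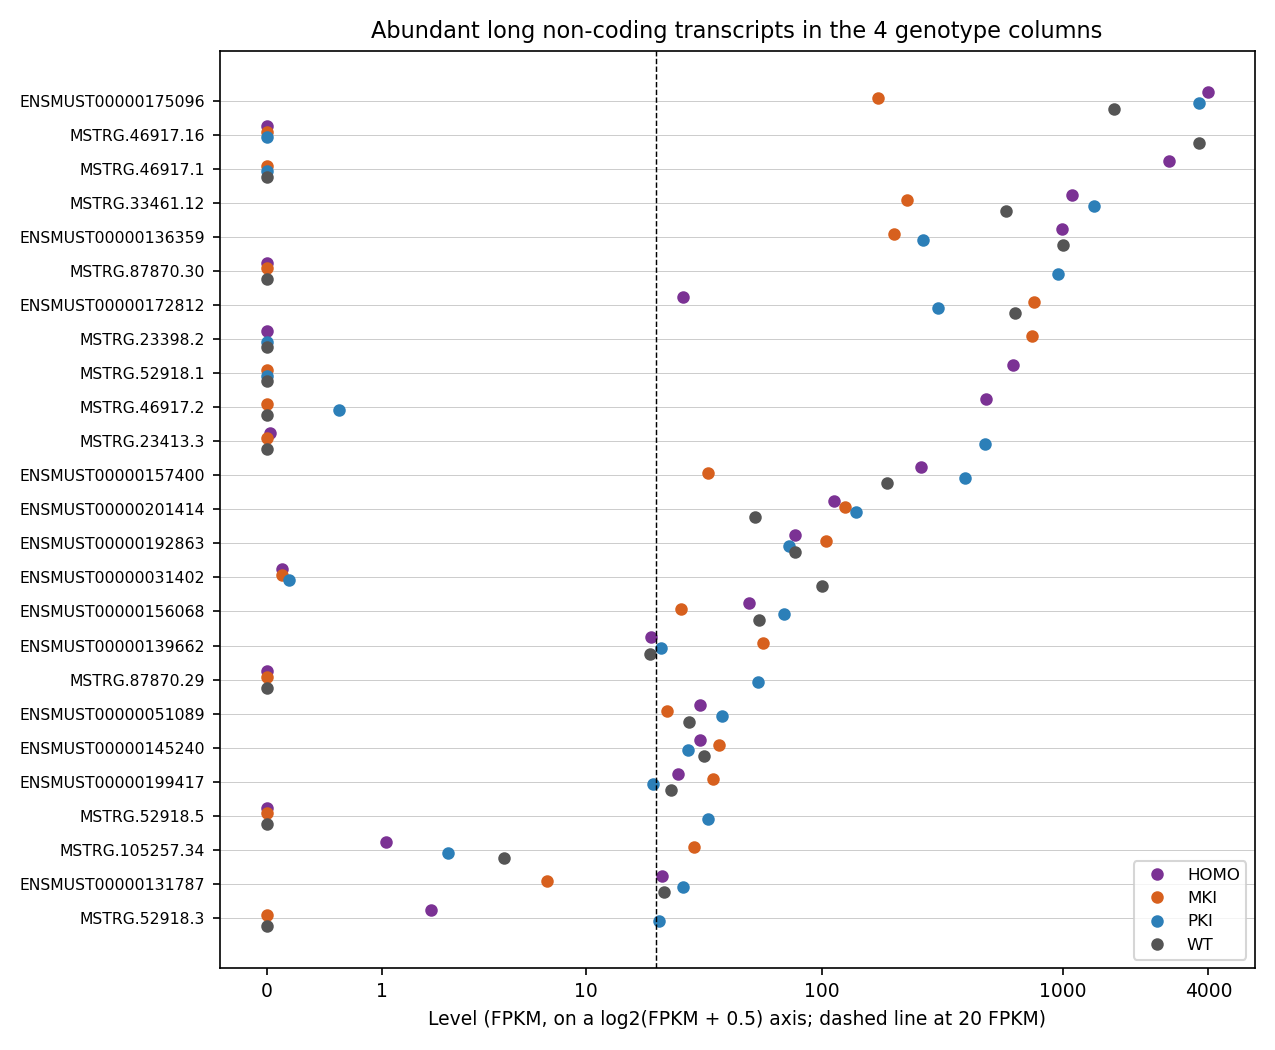
Level of each of the 25 transcripts (rows, sorted by their highest value) in the HOMO, MKI, PKI and WT columns, in FPKM on a log2(FPKM + 0.5) axis; 1 point is 1 column and the dashed line is at 20 FPKM. Assembled transcripts (MSTRG) mostly have 1 high column with the others at or near 0, and transcripts with Ensembl identifiers mostly have 4 high columns.

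The 25 split by the origin of the identifier. Of the 13 with Ensembl identifiers, 9 were at 20 FPKM or more in all 4 columns and none was listed at 0 anywhere. Of the 12 assembled transcripts, 10 were listed at 0 in at least 2 columns, 7 of these in 3, and 1 was at 20 FPKM or more throughout. Over the whole table, the share listed at 0 in at least 2 columns was 51.7% of the 20914 assembled transcripts and 58.1% of the 8244 Ensembl transcripts. Among the 43 transcripts whose highest value lay between 10 and 20 FPKM, 5 of 21 assembled and 0 of 22 Ensembl transcripts were so listed. The whole table and these 43 were taken without the condition on the 2 pairs, so the sets are unlike. A transcript above 0 in 1 column alone differs in only 1 of the 2 pairs, so the rule never left it out. None of the 4 assembled transcripts left out was listed at 0 in any column. The split is thus partly made by the rule. A value of 0 is given only as listed, since 1 or 2 of 76 ribosomal protein genes, which every cell uses, were also listed at 0 in each column of the mRNA table.

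A usual filter of 0.5 FPKM in at least 2 columns was passed by 15 of the 25, and by 6181 transcripts of the table. The 10 that did not pass were 9 assembled transcripts and ENSMUST00000031402, each above the filter in 1 column alone. A transcript high in a single column had to differ between columns to be in the list, so the counts below describe the selection. Of the 25, 3 were at least 2-fold above each other column in HOMO (0.113% of the 6181), 5 in PKI (0.307%) and 2 in WT (0.194%), and none was at least 2-fold below each other column in PKI (0.744%). The 6181 exclude transcripts above the filter in 1 column alone, as 10 of the 25 were. These shares thus come from an unlike set, and no excess is read from them.

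Among the members with Ensembl identifiers, 4 stayed within a 2-fold range over all columns on the deposited values. ENSMUST00000145240 stood at 30.6 FPKM in HOMO, 37.1 in MKI, 27.3 in PKI and 32.1 in WT, a range of 0.44 on the log2(FPKM + 0.5) scale. ENSMUST00000192863 stood at 77.2 FPKM in HOMO, 103.5 in MKI, 72.5 in PKI and 76.6 in WT (range 0.51). The other 2 were ENSMUST00000051089, with a range of 0.75 and its lowest value in MKI (22.4 FPKM), and ENSMUST00000199417, with a range of 0.84 and its highest value in MKI (35.0 FPKM). The next smallest range, 1.38, was that of ENSMUST00000201414. Of the 6181 transcripts that passed the filter, 71.6% also had a range under 2-fold. The 4 of 25 are 16% of the members, a group chosen by values in these columns. None of the 4 kept this range under quantile normalization, which keeps ranks alone, where MKI against WT was 2.49 for ENSMUST00000145240, 2.13 for ENSMUST00000192863, 2.82 for ENSMUST00000199417 and 1.23 for ENSMUST00000051089. Quantile normalization gives each column the same values by rank. The highest MKI value was 756 FPKM, against 13466 in HOMO, 29660 in PKI and 14818 in WT. High MKI ranks were thus raised by construction. Under TMM factors (scaling by trimmed means of log ratios) ENSMUST00000051089 alone of the 4 passed 2-fold, at 1.06 for HOMO against MKI and -1.25 for MKI against PKI.

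MKI was the extreme column for 13 of the 15 transcripts above 0 everywhere, lowest for 7 and highest for 6. MKI was also the lowest column for 13.7% and the highest for 61.4% of the 5696 transcripts that passed the filter and were above 0 everywhere. The first of those lowest in MKI was ENSMUST00000175096, the most abundant member of all, at 3975 FPKM in HOMO, 171 in MKI, 3674 in PKI and 1626 in WT. HOMO and PKI were alike, WT lay 2.44-fold below HOMO, and MKI lay 23.3-fold below HOMO and 9.53-fold below WT. Under quantile normalization its difference from WT was 0.65 for HOMO and 0.65 for PKI, short of 2-fold, against 1.29 for HOMO and 1.18 for PKI on the deposited values. ENSMUST00000157400 had the same order of columns except for the first place, at 258 FPKM in HOMO, 33.4 in MKI, 391 in PKI and 185 in WT. MSTRG.33461.12, the assembled transcript that was high throughout and the sole row of its locus, stood at 1092 FPKM in HOMO, 225 in MKI, 1343 in PKI and 581 in WT.

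All 3 were thus lowest in MKI, next in WT, and highest in HOMO or PKI. ENSMUST00000131787, at 21.4 FPKM in HOMO, 6.74 in MKI, 26.1 in PKI and 21.7 in WT, was low in MKI alone. ENSMUST00000156068, at 49.5 FPKM in HOMO, 25.6 in MKI, 69.1 in PKI and 54.2 in WT, was less than 2-fold below HOMO in MKI. Of the 25 transcripts, 4 were at least 2-fold below each of the other columns in MKI, against 2.09% of the 6181. Summed red cell genes were also lowest in MKI and summed mitochondrial genes highest, with the values given above, and their part in these differences was not tested.

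Ranks within each column were as follows. MSTRG.33461.12 ranked 5 in HOMO, 5 in MKI, 6 in PKI and 9 in WT. ENSMUST00000175096 ranked 3 in HOMO, 7 in MKI, 3 in PKI and 4 in WT, and ENSMUST00000157400 ranked 12 in HOMO, 15 in MKI, 12 in PKI and 13 in WT. Quantile normalization reversed the sign of the difference of MKI from WT, which the rule used, in MSTRG.33461.12 (1.39 against -1.37 on the deposited values), ENSMUST00000156068 (0.72 against -1.07), ENSMUST00000136359 (0.30 against -2.33) and ENSMUST00000051089 (1.23 against -0.30). It gave -0.44 for ENSMUST00000157400, against -2.46 on the deposited values. Under TMM factors no difference of 2-fold or more changed sign in any comparison.

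Of the transcripts highest in MKI, ENSMUST00000139662 stood at 19.1 FPKM in HOMO, 56.7 in MKI, 21.2 in PKI and 18.97 in WT, so that MKI lay 2.97-fold above HOMO and 2.99-fold above WT, and the other 3 columns were close together. MSTRG.105257.34 stood at 1.06 FPKM in HOMO, 29.0 in MKI, 2.33 in PKI and 4.33 in WT. Its locus held 12 rows of the table, which summed to 2.76 FPKM in HOMO, 34.1 in MKI, 5.38 in PKI and 6.51 in WT, with this row the highest in each column. With MSTRG.23398.2, these were the 3 of 25 transcripts at least 2-fold above each other column in MKI, against 2.1% of the 6181. MSTRG.23398.2, above 0 in MKI alone, did not pass the filter that defines the 6181. Under TMM factors ENSMUST00000139662 was 0.92 above HOMO and 0.90 above PKI on the log2 scale, short of 2-fold.

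ENSMUST00000172812 was set apart by HOMO. It stood at 26.2 FPKM in HOMO, 756 in MKI, 301 in PKI and 631 in WT. HOMO was the lowest column by far, 28.9-fold below MKI, 11.5-fold below PKI and 24.1-fold below WT, and PKI lay 2.09-fold below WT. Under TMM factors the difference of PKI from WT was -0.86 and that of MKI from PKI 0.82 on the log2 scale, both short of 2-fold. Its rank was 22 in HOMO, 1 in MKI, 14 in PKI and 8 in WT. It was the single member at least 2-fold below each other column in HOMO, against 1.38% of the 6181.

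ENSMUST00000136359 paired HOMO with WT. It stood at 992 FPKM in HOMO, 199 in MKI, 262 in PKI and 1002 in WT. The columns with an insertion on both copies or on neither were within 1.01-fold of each other, and each column with an insertion on 1 copy was lower, MKI 4.98-fold below HOMO and 5.03-fold below WT, PKI 3.79-fold below HOMO and 3.83-fold below WT. Under quantile normalization MKI was no longer low, with HOMO against MKI at 0.00, MKI against WT at 0.30 and MKI against PKI at 3.02. HOMO and WT stayed close there, and PKI alone stayed below. That setting raised high MKI ranks by construction, and under TMM factors no difference of 2-fold or more changed sign. ENSMUST00000201414 set WT apart instead, at 112 FPKM in HOMO, 124 in MKI, 138 in PKI and 52.5 in WT. WT was lower than each of the others by 2.14-fold to 2.62-fold, which 0.857% of the 6181 transcripts also showed at 2-fold or more, though the difference between MKI and WT was 0.93 on the log2 scale under TMM factors and that between PKI and WT 0.78 under quantile normalization, both short of 2-fold.

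ENSMUST00000031402 was high in WT alone, at 0.0765 FPKM in HOMO, 0.0781 in MKI, 0.120 in PKI and 99.5 in WT. WT lay 833-fold above PKI, 1275-fold above MKI and further above HOMO. WT was also the column in which the 4 Y-linked genes were listed at 0. The parts of this and of the insertion cannot be told apart here, nor in any other comparison with WT.

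**Figure D4:**
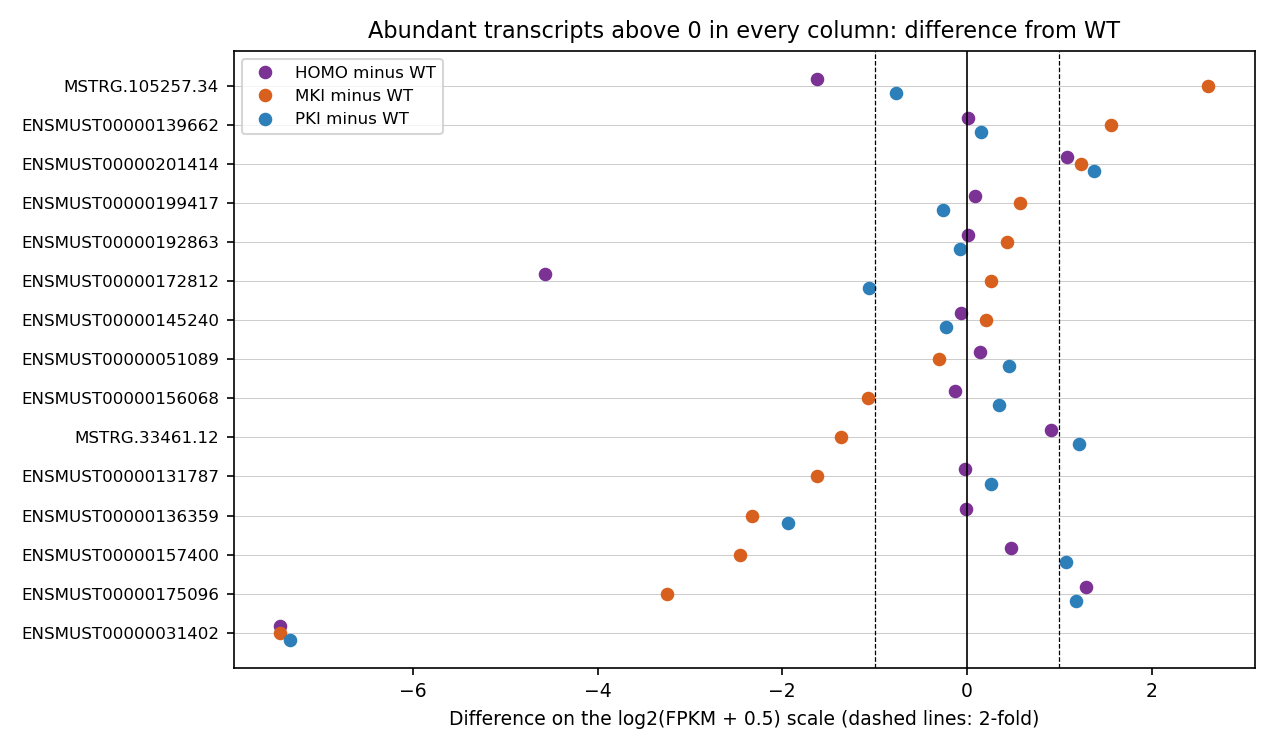
Difference of HOMO, MKI and PKI from WT on the log2(FPKM + 0.5) scale for the 15 transcripts above 0 in every column, sorted by the MKI difference with the highest at the top; dashed lines mark 2-fold. MKI points run from -7.43 to 2.61, and ENSMUST00000172812 is the transcript with a HOMO point at -4.56 and an MKI point at 0.26.

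Most assembled members shared their locus with other abundant rows. The 12 came from 7 loci, 3 of which supplied at least 2 members each. In several loci different transcripts of the same locus carried the value in different columns. Locus MSTRG.46917 supplied 3 members. MSTRG.46917.16 stood at 3644 FPKM in WT and was listed at 0 in HOMO, MKI and PKI. MSTRG.46917.1 stood at 2737 FPKM in HOMO and MSTRG.46917.2 at 480 FPKM in HOMO, and both were listed at 0 in MKI and WT. In PKI the first of these was listed at 0 and the second stood at 0.499 FPKM. Summed over its 3 rows, the locus stood at 3217 FPKM in HOMO, 0 in MKI, 0.499 in PKI and 3644 in WT. Row by row HOMO and WT differed completely, whereas the locus sum in HOMO was 0.883 of that in WT, and MKI and PKI were at or near 0 in both views.

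Locus MSTRG.23398 held the most abundant row of the table. The member MSTRG.23398.2 stood at 745 FPKM in MKI and was listed at 0 in HOMO, PKI and WT. The row left out by the rule, MSTRG.23398.6, stood at 13466 FPKM in HOMO, 2.92 in MKI, 29660 in PKI and 14818 in WT. The locus sum was 748 FPKM in MKI, 18.0-fold below HOMO, 39.7-fold below PKI and 19.8-fold below WT. The member row was the higher of the pair in MKI, where it held 99.6% of the locus sum.

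Locus MSTRG.52918 was found in HOMO and PKI. MSTRG.52918.1 stood at 620 FPKM in HOMO and was listed at 0 elsewhere, while MSTRG.52918.5 stood at 33.3 FPKM in PKI and was listed at 0 elsewhere. MSTRG.52918.3 stood at 1.89 FPKM in HOMO and 20.6 in PKI, and at 0 in MKI and WT. The 5 rows of the locus summed to 624 FPKM in HOMO and 54.0 in PKI, and were listed at 0 in MKI and WT. The locus was thus above 0 in both columns with a paternal insertion, led by a different row in each, and in neither of the others. How many other loci showed this was not counted, and the part of the insertion was not tested.

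The listed rows of locus MSTRG.87870 were seen in PKI alone, with MSTRG.87870.30 at 951 FPKM and MSTRG.87870.29 at 53.7 FPKM, both listed at 0 in HOMO, MKI and WT. The table holds no other row of this locus. MSTRG.23413.3 was likewise at 475 FPKM in PKI, at 0.0185 FPKM in HOMO and at 0 in MKI and WT. Its locus had a far higher row, left out by the rule, and summed to 295 FPKM in HOMO, 141 in MKI, 3260 in PKI and 1372 in WT.

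A change of leading transcript between columns was common among assembled loci. Of 9 loci with at least 2 rows and a sum of 20 FPKM or more in at least 2 columns, 4 had different leading rows among those columns, and 3 of these 4 were loci of members. Of 98 loci with a sum of 5 FPKM or more in at least 2 columns, 40 (40.8%) did, and of 730 with 1 FPKM or more, 328 (44.9%) did. Transcript numbers reached 16 in MSTRG.46917 and 30 in MSTRG.87870, while the table has 3 rows of the one and 2 of the other. Locus sums and absences therefore cover the listed rows alone, and other transcripts of these loci may have been present in any column.

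Members at least 2-fold apart were counted in each comparison and set beside the same count over the 6181 transcripts that passed the filter. The sets are unlike, since 10 of the 25 members did not pass it. The 15 members above 0 everywhere are not the same as the 15 that passed. ENSMUST00000031402 was above 0 everywhere without passing, and MSTRG.52918.3 passed while listed at 0 in MKI and WT. PKI was at least 2-fold higher than WT for 9 of the 25 members and lower for 4, against 3.03% and 3.46% of the 6181. In 5 of the 9, WT was listed at 0, and among the 15 members above 0 everywhere PKI was higher for 4 and lower for 3. The widest differences were upward in MSTRG.87870.30 and MSTRG.23413.3, with WT at 0, and downward in MSTRG.46917.16, with PKI at 0, and in ENSMUST00000031402. The median difference was 0.26 over the 25 and -0.13 over the 6181.

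HOMO was at least 2-fold higher than WT for 6 of the 25 and lower for 4, against 2.99% and 5.19% of the 6181. WT was listed at 0 in 4 of the 6, of which MSTRG.46917.1 and MSTRG.52918.1 were the highest. Among the members above 0 everywhere, 2 were higher, with ENSMUST00000175096 the more distant (though not past 2-fold under quantile normalization), and 3 were lower, led by ENSMUST00000031402 and ENSMUST00000172812. The median was 0.01 over the 25 and -0.22 over the 6181. With the rows of each assembled locus summed and the rule applied to the sums, 3 were higher and 6 lower, and with a minimum of 10 FPKM for members 7 were higher and 9 lower.

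HOMO was at least 2-fold higher than MKI for 9 of the 25 and lower for 4, against 4.85% and 12.1% of the 6181. The highest were MSTRG.46917.1 and MSTRG.52918.1, with MKI at 0, and the lowest MSTRG.23398.2, with HOMO at 0, and ENSMUST00000172812. MKI was listed at 0 in 4 of the 9, and among the 15 members above 0 everywhere HOMO was higher for 5 and lower for 3. The median was 0.00 over the 25, of which 4 were listed at 0 in both columns, -0.004 over those 15 and -0.45 over the 6181. Under quantile normalization 6 members were higher and 8 lower, and with rows summed by locus 7 and 7.

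MKI was at least 2-fold higher than PKI for 4 of the 25 and lower for 10, against 8.51% and 5.86% of the 6181, and PKI was the only one of the pair above 0 in 5 of the 10. MSTRG.23398.2 and MSTRG.105257.34 were the furthest upward and MSTRG.87870.30 and MSTRG.23413.3 the furthest downward. Among the 15 members above 0 everywhere MKI was higher for 3 and lower for 5. The median was -0.39 over the 25 and 0.36 over the 6181. Under quantile normalization 10 were higher and 8 lower, and under TMM factors 2 and 12.

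The remaining comparisons were used by the rule. MKI was at least 2-fold higher than WT for 4 of the 25 and lower for 8, against 6.5% and 6.26% of the 6181, with medians of 0.00 and 0.23. Both columns were listed at 0 for 8 of the 25, and over the 15 members above 0 everywhere the median was -0.30. Under quantile normalization 10 members were higher and 4 lower. HOMO was at least 2-fold higher than PKI for 4 and lower for 6, against 2.83% and 4.29%, with medians of -0.28 and -0.09, and under quantile normalization 6 were higher and 6 lower. Nothing is read from these counts. Quantile normalization and TMM factors moved the median of the 6181 transcripts by -0.23 and -0.21 for MKI against WT and by 0.42 and 0.42 for HOMO against MKI. For MKI against PKI they moved it by -0.33 and -0.34.

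Close to the limits of the rule, the members with the lowest maxima were MSTRG.52918.3 (20.6 FPKM), ENSMUST00000131787 (26.1 FPKM) and MSTRG.105257.34 (29.0 FPKM). Just below were ENSMUST00000165350 (19.7 FPKM), ENSMUST00000178978 (18.95 FPKM) and ENSMUST00000202826 (17.8 FPKM). ENSMUST00000178978 stood at 17.4 FPKM in HOMO, 0.0176 in MKI, 18.95 in PKI and 17.0 in WT. For the condition on both maternal pairs, the member nearest to exclusion was ENSMUST00000157400, with a difference of -2.46 for MKI against WT and -0.60 for HOMO against PKI. The nearest row left out was MSTRG.23398.6, with -12.08 for MKI against WT and -1.14 for HOMO against PKI on the log2(FPKM + 0.5) scale.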

How the data were processed

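RNA of whole mouse embryos was sequenced as paired ends after oligo(dT) selection, with dUTP marking of second strands, per the labels' protocols. Per the submitters' processing notes, the authors used cutadapt 1.9, HISAT2 2.0.4 and StringTie 1.3.4d on GRCm38, and their annotation release is unknown here. The deposited long non-coding and mRNA tables were read as FPKM, since the authors' notes name StringTie, values are not whole and column sums differ. The headers name no unit. Columns carry a genotype name and no replicate number, so the planned limma fit had no spread to estimate and no test was made. The small-RNA table was not used.

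Differences were computed in Python 3.11.15 (numpy 2.4.6, pandas 2.3.3) on the log2(FPKM + 0.5) scale, which understates folds of low transcripts; fold values are ratios of FPKM. Transcripts at 0.5 FPKM or more in at least 2 columns formed the background. Named transcripts were the highest 10 of each column, up to 2 each way per comparison, the 5 of smallest range, those nearest the thresholds and, chosen after their values were seen, all other members. Members and lists were chosen with earlier results of these data known. Lists of 13, 26, 10 and 11 well-known non-coding RNAs could not be matched to the table's transcript identifiers. Alternatives were a pseudocount of 0.1 or 1, quantile normalization, TMM factors, members at 10 or 50 FPKM, no filter, and, added after seeing the data, rows summed by locus and members above 0 everywhere. Steps were checked on simulated data.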

Additional observations from a re-analysis of the deposited data

Results flagged for a closer look

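ENSMUST00000136359 was singled out because the maternal insertion went with opposite differences on the 2 paternal backgrounds. On the log2(FPKM + 0.5) scale the difference was 1.92 for HOMO against PKI and -2.33 for MKI against WT, a gap of 4.25 between the pairs. These are the pairs that the rule used. Arranged by the paternal insertion, the same 4 values gave 2.31 for HOMO against MKI and -1.94 for PKI against WT. This is the same gap by arithmetic and not a second observation. With 1 column per genotype this difference was not tested. Of the 6181 transcripts that passed the filter, 86 (1.39%) were at least 2-fold and opposite in the pairs of the rule. Of these, 36 were in this direction, and no other of the 25 abundant transcripts was among the 86. Under quantile normalization the opposite differences were lost, with 0.00 for HOMO against MKI and 0.30 for MKI against WT. That setting raised high MKI ranks by construction, as said above. Under TMM factors no difference of 2-fold or more changed sign in any comparison.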

How the results depend on the processing

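No paired analysis was possible because the columns carry no replicate number, and no replicate could be left out. Counts of members at least 2-fold apart stayed within 1.5 times under both pseudocounts, quantile normalization, TMM factors, a minimum of 50 FPKM and summing by locus, although quantile normalization and summing by locus changed the split by direction as given above. With a minimum of 10 FPKM (54 members) the counts were 21 (6 higher, 15 lower) instead of 12 for MKI against WT, 16 (7 higher, 9 lower) instead of 10 (6 higher, 4 lower) for HOMO against WT, 28 (15 higher, 13 lower) instead of 13 (9 higher, 4 lower) for HOMO against MKI and 31 (13 higher, 18 lower) instead of 14 (4 higher, 10 lower) for MKI against PKI. For the 15 members above 0 in every column they were 7 instead of 13 for PKI against WT, 5 instead of 10 for HOMO against WT, 2 instead of 10 for HOMO against PKI, 8 instead of 13 for HOMO against MKI and 8 instead of 14 for MKI against PKI; fewer members enter by construction.

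The members' share of the column sum was 27.8% in HOMO, 18.2% in MKI, 12.3% in PKI and 18.2% in WT with a minimum of 10 FPKM, and 27.0% in HOMO, 15.7% in MKI, 11.7% in PKI and 17.3% in WT with 50 FPKM. Without the highest row it was 41.8% in HOMO, 16.5% in MKI, 21.6% in PKI and 25.9% in WT, and over Ensembl identifiers alone 41.5% in HOMO, 37.1% in MKI, 21.6% in PKI and 22.7% in WT. The first transcript's share was 19.6% in HOMO, 4.86% in MKI, 32.5% in PKI and 29.5% in WT without the highest row, and 36.6% in HOMO, 17.8% in MKI, 51.1% in PKI and 54.1% in WT over Ensembl identifiers. Without the filter, transcripts at least 2-fold apart in the whole table numbered 875 instead of 401 for PKI against WT, 1769 instead of 789 for MKI against WT, 989 instead of 506 for HOMO against WT, 883 instead of 440 for HOMO against PKI, 2095 instead of 1048 for HOMO against MKI and 1893 instead of 888 for MKI against PKI. Depth is unknown, so no limit can be set on values listed at 0.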
